A study of Mus musculus with 60 samples.

Results

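Mouse embryonic stem cells of the wild-type line V19 were compared after 96 h in 2i and at 0 h, in serum and LIF without inhibitors. The comparison uses 6 of the 60 libraries of the series, chosen by their labels: 3 biological replicates at 96 h and 3 at 0 h. V19 is one of a pair of independently derived wild-type lines; the other, 1A, was sampled in the same way, with 3 libraries at 96 h and 3 at 0 h, and is used here only to show where the response of V19 differs. Both groups of V19 have the same genotype, were kept on gelatin without named feeder cells, and were fed medium with fetal bovine serum and LIF. At 96 h the cells had also received CHIR99021 at 3 µM and PD0325901 at 1 µM, renewed daily; the labels name no vehicle for the 0 h cells and do not say that serum or LIF was taken away when the inhibitors were given. V19 is a single line, so the spread between its replicates does not cover differences between lines.

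CHIR99021 inhibits the kinase GSK3, which otherwise marks beta-catenin for destruction, and PD0325901 inhibits MEK, the kinase that activates ERK downstream of FGF receptors. Cultured in serum with LIF, mouse embryonic stem cells are a mixture in which individual cells drift between a naive state and states closer to differentiation. The pair of inhibitors, known as 2i, is used to hold them near the naive state of the early epiblast, in which the gene network around Nanog, Esrrb and Tfcp2l1 is active, ERK signalling is low and DNA methylation is reduced.

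Polyadenylated RNA was sequenced, and the values analysed are read counts per gene. Levels are given as CPM, read counts relative to the library total scaled with TMM factors, by library or as mean ± SD (n = 3 per group), and levels of different genes are set side by side only as TPM, which also divide by exon length. Changes are log2 fold changes of 96 h over 0 h ± standard error, and a gene was called when edgeR's quasi-likelihood test gave an adjusted p under 0.05 over all genes tested. The 96 h libraries held 4310359, 5253550 and 5794429 assigned reads, and the 0 h libraries 6497134, 5120546 and 4890442. Mitochondrial genes took 1.23 to 1.67% of the reads at 96 h and 1.1 to 1.3% at 0 h. Root mean square deviations from the group mean were 0.158 to 0.176 at 96 h and 0.161 to 0.188 at 0 h on the log2 scale. The median over all 60 libraries was 0.165. No library at 96 h stood apart, and pairs of them differed by a chi-square per degree of freedom of 1.29 to 2.09. At 0 h replicate 2 had the highest deviation (0.188). It differed from replicates 1 and 3 by 3.53 and 3.3, whereas replicates 1 and 3 differed from each other by 1.13. The cause was not tested.

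After 96 h in 2i the transcriptome of V19 differed from that at 0 h across a large part of the genes measured. Of 15083 genes tested, 7158 were called (47.5%), of which 3738 rose (24.8%) and 3420 fell (22.7%). Calls with at least a 2-fold change numbered 1592 higher (10.6%) and 1209 lower (8.02%). All 3 libraries at 96 h lay above all 3 at 0 h for 30.3% of the genes, and below them for 29%. The median log2 fold change of all tested genes was 0.012. A list of genes is described below by its own counts, to be read against these shares of 24.8% higher and 22.7% lower. Genes called higher supplied 17.5% of the TPM at 96 h and 10.1% at 0 h, and genes called lower supplied 25.3% at 96 h and 33.4% at 0 h.

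**Figure D1:**
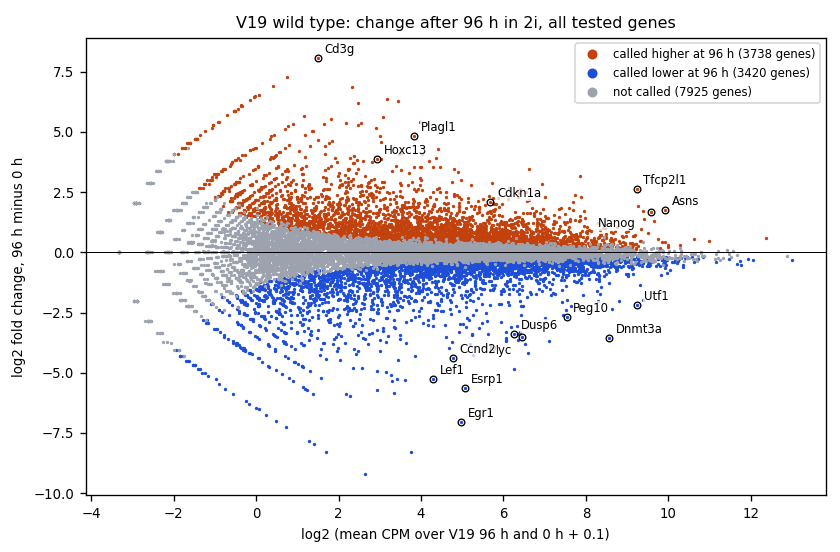
Log2 fold change of V19, 96 h minus 0 h (vertical axis), against the log2 of the mean CPM over both groups plus 0.1 (horizontal axis) for the 15083 genes tested; orange points are the 3738 genes called higher, blue points the 3420 called lower, grey points were not called. Abundant Tfcp2l1, Nanog and Asns stand above the axis, Dnmt3a, Utf1, Myc and Egr1 below it; the straight streaks at low level are genes with few or no counts in a group, whose fitted change depends on the prior count.

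The cells carried the defining markers of embryonic stem cells in both groups. Pou5f1 (Oct4), the octamer-binding factor of pluripotent cells, was at 1554, 1529 and 1484 CPM at 96 h and 1830.0, 1844 and 1823 CPM at 0 h. Sox2, its DNA-binding partner, was at 457, 439.8 and 457 CPM at 96 h and 538, 531 and 524 CPM at 0 h. Some markers of other cells were absent or nearly so. Lum and Postn, made by fibroblasts, had no count in any of the 6 libraries. Elf5, a trophoblast factor, stayed at or below 0.134 CPM on average in both groups. Others were present. Col1a1, also of fibroblasts, was at 4.03 CPM at 96 h and 1.41 CPM at 0 h and was called higher (1.53 ± 0.42). Eomes, also in the trophoblast list, was at 17.6 CPM at 96 h and 6.87 CPM at 0 h. Further markers, among them Gata3, Gsc, Gata6 and Sox1, are given below. These are bulk libraries, in which fewer cells of a type and less RNA per cell cannot be told apart.

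Most genes of the naive network rose. Of 20 naive genes, all tested, 15 were higher at 96 h, 4 were lower and 1 was not called, with a median log2 fold change of 0.68. Nanog, a homeodomain factor that sustains self-renewal, was at 1119, 1159 and 1214 CPM at 96 h and 342, 396 and 354 CPM at 0 h (1.68 ± 0.085, adjusted p = 7.5e-23). Its promoter is shown because it was among the most strongly raised genes of the network and carries a match to the octamer bound by Oct4, in capitals (ATGCAAA on either strand), at base 176 of the window; 2 of the 14 naive genes with a promoter in the RefSeq table hold that motif, Nanog and Zfp42, against 5.24% of all 27025 genes in it. The window of 300 bases runs from 250 before to 50 after the annotated start, on the plus strand of chr6:122707239-122707538 (GRCm38.p6, RefSeq), and a match is a description of the letters, not of binding.
Nanog: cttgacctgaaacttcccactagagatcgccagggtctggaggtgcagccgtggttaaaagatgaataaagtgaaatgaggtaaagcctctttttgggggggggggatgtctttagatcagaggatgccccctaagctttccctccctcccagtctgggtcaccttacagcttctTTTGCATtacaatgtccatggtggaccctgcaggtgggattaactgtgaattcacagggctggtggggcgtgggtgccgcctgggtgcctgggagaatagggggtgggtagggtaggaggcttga

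Tfcp2l1, a factor that acts downstream of LIF and of GSK3 inhibition, had the highest rise of the list, with 1070.1, 1006 and 1021 CPM at 96 h and 178, 144 and 184 CPM at 0 h (2.61 ± 0.16, adjusted p = 1.1e-19). Tbx3, a T-box factor of the naive network, was at 355, 320.4 and 325 CPM at 96 h and 80.8, 71.5 and 81.3 CPM at 0 h (2.10 ± 0.10). The groups did not overlap for any of these 3 genes, and the gap between them was many times the spread within a group. Prdm14, which restrains FGF signalling and DNA methyltransferases, was at 59.5, 54.9 and 66 CPM at 96 h and 20.003, 15.8 and 15.3 CPM at 0 h (1.81 ± 0.10). Tcl1, a co-activator of the kinase Akt, rose by 1.54 ± 0.10, Esrrb, an orphan nuclear receptor that is repressed by Tcf7l1 when GSK3 is active, by 0.96 ± 0.10, Klf2 by 0.78 ± 0.11 and Klf4 by 0.73 ± 0.15; the last pair are Krüppel-like factors of the same network.

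The 4 naive genes that fell were Gbx2, Dppa3, Nr0b1 and Klf5. Gbx2, a homeobox factor induced by LIF, was at 23.9, 23 and 24.6 CPM at 96 h and 152, 145 and 144 CPM at 0 h (-2.62 ± 0.11, adjusted p = 1.6e-25). Dppa3 (Stella), a maternal factor, was at 9.42, 9.89 and 9.65 CPM at 96 h and 29.6, 36.1 and 31.1 CPM at 0 h (-1.73 ± 0.25). Nr0b1 (Dax1), an X-linked nuclear receptor that binds Oct4, was at 145, 150.01 and 158 CPM at 96 h and 267, 266 and 248 CPM at 0 h (-0.79 ± 0.087). For each of these genes every 96 h library lay below every 0 h library. Klf5 had the smallest fall of the list, at -0.41 ± 0.12, and Stat3, the transcription factor activated by LIF, was not called at -0.12 ± 0.10 (adjusted p = 0.33).

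**Figure D2:**
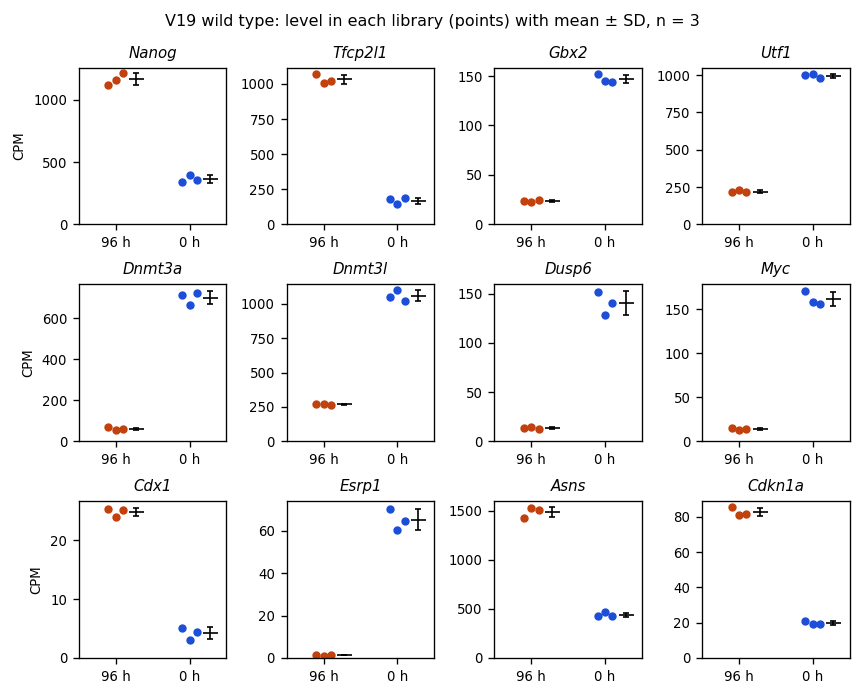
CPM of 12 genes in each V19 library (points), with the 3 libraries at 96 h on the left in orange and the 3 at 0 h on the right in blue, and the mean ± SD of each group as a bar beside the points; every axis starts at 0. In all 12 panels the groups are separate, for example Nanog at 1119 to 1214 CPM at 96 h against 342 to 396 CPM at 0 h.

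Factors shared by naive and later pluripotent cells mostly fell, some of them slightly. Of 10 core genes 9 were lower and 1 was higher (median -0.51). Utf1, a chromatin-associated factor of pluripotent cells, was at 214, 229 and 216 CPM at 96 h and 1003, 1006 and 981 CPM at 0 h (-2.18 ± 0.092, adjusted p = 5.5e-26). Lin28a, which blocks the maturation of let-7 microRNAs, was at 166, 185 and 175 CPM at 96 h and 714, 715 and 724 CPM at 0 h (-2.03 ± 0.088). Neither gene's groups overlapped, and both remained well expressed at 96 h. Dppa2 and Dppa4, paired regulators of bivalent promoters, also fell (-0.93 ± 0.11 and -0.89 ± 0.095), as did the zinc-finger factor Sall4 (-0.58 ± 0.086). Pou5f1 and Sox2 fell slightly (-0.27 ± 0.095, adjusted p = 0.017, and -0.23 ± 0.056), and with the authors' RUV-normalized values neither was called (adjusted p = 0.18 and 0.275). Sox2 was not called without the filter either (0.0631). The gene that rose was Gdf3, a ligand of the TGF-beta family (0.30 ± 0.10). Leaving out replicate 3 at 96 h ended the calls of Pou5f1 (adjusted p = 0.052) and Gdf3 (0.0719), and leaving out replicate 3 at 0 h that of Gdf3 (0.0688).

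Genes of the formative and primed states, which mark cells leaving the naive state, were much lower. Of 20 listed, 19 were tested, of which 13 fell and 1 rose (median -2.08); Fgf5 was left out by the filter, with 2 counts over the 96 h group and 18 over the 0 h group. Otx2, a homeobox factor that redirects Oct4 to new enhancers, was at 2.07, 5.51 and 3.79 CPM at 96 h and 32, 30.7 and 33 CPM at 0 h (-3.03 ± 0.20). Pou3f1 (Oct6), a POU factor of the epiblast, was at 4.14, 6.65 and 8.1 CPM at 96 h and 60.7, 73.6 and 71.7 CPM at 0 h (-3.41 ± 0.17). The 96 h libraries lay below the 0 h libraries for both. Grhl2, a Grainyhead factor that opens epithelial enhancers, was at 9.42, 9.51 and 7.24 CPM at 96 h and 85.5, 73 and 69.4 CPM at 0 h (-3.13 ± 0.14), and Tcf15, a bHLH factor of cells primed to differentiate, fell by 3.65 ± 0.19. The member that rose was Nodal (0.64 ± 0.11), the ligand that also sustains the epiblast in the embryo. Zic2, Zic5, Sall2, Cdh2 and Etv5 were not called, with log2 fold changes of -0.061, -0.0048, -0.36, 0.047 and -0.023.

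**Figure D3:**
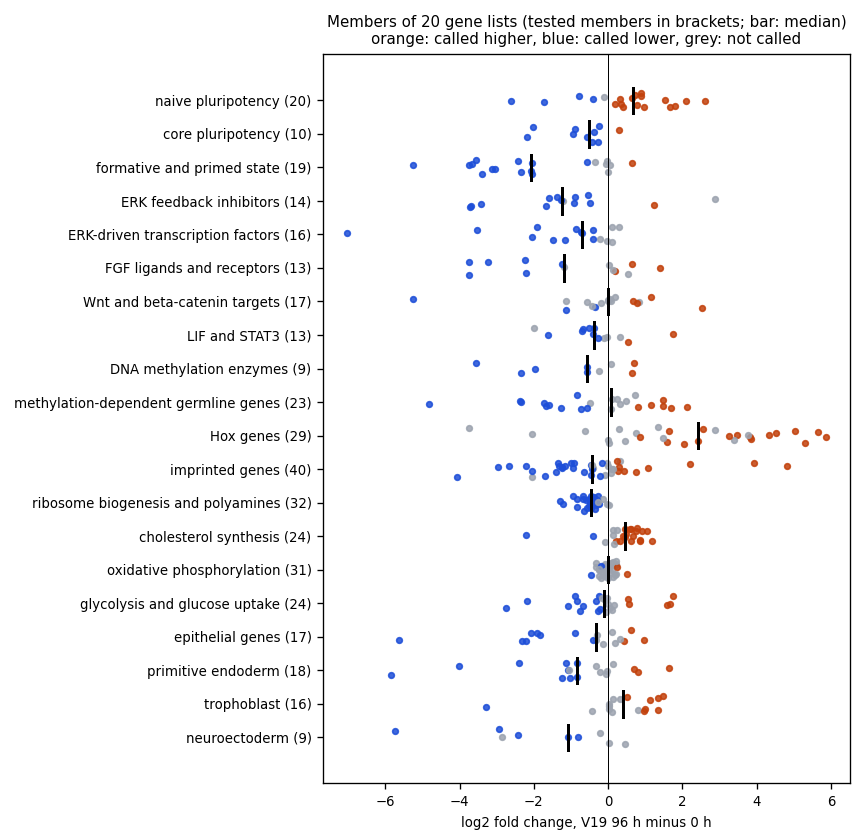
Log2 fold change of V19, 96 h minus 0 h (horizontal axis), for the tested members of 20 gene lists (rows, with the number tested); each point is a gene, orange if called higher, blue if called lower and grey if not called, and the black bar is the list's median. Naive pluripotency, Hox and cholesterol synthesis genes lie mostly to the right, with medians of 0.68, 2.41 and 0.46. Hox levels were very low at 0 h, and their median was 1.57 with groups without a count set at 3 counts. It was 1.01 with the authors' RUV-normalized values and 3.65 with the 2 groups fitted alone. Formative genes and ERK feedback inhibitors lie mostly to the left, with medians of -2.08 and -1.24.

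Most genes that report on ERK activity fell. ERK induces its own inhibitors, the Dusp phosphatases, which remove its activating phosphates, and the Sprouty and Spred proteins, which act further up the pathway. Of 14 such genes, all tested, 11 fell and 1 rose (median -1.24). Dusp6, which is specific for ERK, was at 13.8, 14.1 and 11.9 CPM at 96 h and 152, 128 and 141 CPM at 0 h (-3.41 ± 0.12, adjusted p = 3.0e-29). Spry4 was at 17.7, 17.1 and 23.6 CPM at 96 h and 265, 247 and 253 CPM at 0 h (-3.70 ± 0.12). Both were separated from 0 h without overlap, and both were still measurable at 96 h. Dusp4 and Spred1 fell as well (-3.73 ± 0.18 and -1.67 ± 0.13), and Spry2 fell by 0.92 ± 0.07. The member that rose was Dusp10 (1.24 ± 0.32), a phosphatase that prefers the stress kinases JNK and p38.

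Transcription factors downstream of ERK fell or were not called. Of 20 listed, 16 were tested, 11 fell and 0 rose (median -0.71). Egr1, an immediate early zinc-finger factor, was at 0.46, 0 and 0.862 CPM at 96 h and 62.8, 57.2 and 65.6 CPM at 0 h (-7.03 ± 0.30, adjusted p = 2.4e-25), and the 96 h values correspond to 7 counts over the group. Myc, a driver of growth and ribosome production, was at 14.9, 13.1 and 13.8 CPM at 96 h and 170.3, 158 and 155 CPM at 0 h (-3.53 ± 0.11, adjusted p = 1.0e-30). Both were nearly off or at a small fraction of the 0 h level in every 96 h library. Etv4, a PEA3 factor and a sensitive target of FGF signalling, was at 66.9, 62.2 and 68.1 CPM at 96 h and 287, 272 and 264 CPM at 0 h (-2.06 ± 0.12). Its relatives behaved otherwise at this time: Etv5 was at 232, 255 and 227 CPM at 96 h and 239, 226 and 260.0 CPM at 0 h, and Etv1 at 19.8, 19.8 and 19.99 CPM at 96 h and 18.2, 20.5 and 17 CPM at 0 h, with overlapping libraries for both and adjusted p of 0.86 and 0.66.

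FGF ligands and receptors split by member. Of 13 tested of 15 listed, 6 fell and 3 rose (median -1.19). Fgf4, the main autocrine ligand of embryonic stem cells, was at 309, 326 and 310.2 CPM at 96 h and 268, 283 and 279 CPM at 0 h, a small rise (0.19 ± 0.072, adjusted p = 0.029) whose call was lost without replicate 1 or 3 at 0 h or replicate 2 or 3 at 96 h (adjusted p = 0.052 to 0.121), with RLE factors (0.0689) and without the filter (0.269). Fgfr1, the receptor of the epiblast, rose by 0.64 ± 0.10, while Fgfr2, the receptor of primitive endoderm and trophoblast, fell by 2.22 ± 0.26. Fgf17, a ligand of the Fgf8 subfamily, fell by 2.24 ± 0.16, and Fgfbp1, which releases FGFs from the matrix, fell by 3.75 ± 0.27. Fgf15, an endocrine FGF, was at 0.919, 0.38 and 0.517 CPM at 96 h and 6.99, 9.43 and 8.09 CPM at 0 h (-3.75 ± 0.33), and part of its exons overlap a gene on the other strand.

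Targets of Wnt and beta-catenin did not move as a block at 96 h. Of 17 tested of 20 listed, 4 rose and 3 fell, with a median of -0.005. Cdx1, a caudal homeobox factor, was at 25.3, 24 and 25.2 CPM at 96 h and 5.04, 3.07 and 4.47 CPM at 0 h (2.54 ± 0.19, adjusted p = 4.1e-16). Tnfrsf19 (Troy), a receptor, rose by 0.66 ± 0.19 and Apcdd1, a membrane-bound Wnt inhibitor, by 0.79 ± 0.21. Axin2, the scaffold that limits beta-catenin, was at 33.8, 27.4 and 31.4 CPM at 96 h and 35.1, 27.9 and 29.2 CPM at 0 h, with overlapping groups (adjusted p = 0.99). Lef1, both a target and a partner of beta-catenin, was at 0.23, 1.14 and 1.38 CPM at 96 h and 39, 38.1 and 36.8 CPM at 0 h (-5.26 ± 0.26), and the cyclin gene Ccnd1 fell by 1.13 ± 0.092. T (brachyury) was listed at 0 counts in each of the 6 libraries.

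Signalling by Nodal, BMP and LIF showed opposite changes of ligands, inhibitors and targets. Among 14 Nodal pathway genes, 6 rose and 6 fell. Lefty1, a Nodal antagonist, was at 9.65, 6.08 and 8.45 CPM at 96 h and 25.4, 20.5 and 26.6 CPM at 0 h (-1.59 ± 0.20). Lefty2, its neighbour and paralog, was at 42.3, 40.1 and 43.8 CPM at 96 h and 17.2, 15.4 and 20.2 CPM at 0 h (1.26 ± 0.13). The pair thus moved in opposite directions, each without overlap between the groups; how reads of these similar genes were shared out cannot be seen from the counts. Pcsk6, a protease that processes Nodal, rose by 1.23 ± 0.11, and Skil, a brake on Smad proteins, fell by 1.51 ± 0.14.

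Of 13 BMP pathway genes tested, 6 rose and 4 fell (median 0.30). Id1, an inhibitor of bHLH factors that BMP in serum induces, was at 10.3, 12.9 and 13.3 CPM at 96 h and 116, 133 and 115 CPM at 0 h (-3.30 ± 0.19, adjusted p = 6.5e-21). Id2 fell by 2.01 ± 0.25 and Id3 fell by 0.64 ± 0.14, whereas Id4 rose by 1.77 ± 0.30. The ligand gene Bmp4 was at 11.7, 11.8 and 11.4 CPM at 96 h and 58.4, 54.7 and 55.1 CPM at 0 h (-2.27 ± 0.13), and Bmp7 rose by 1.90 ± 0.29. LIF pathway genes fell more often than they rose, with 7 lower and 2 higher of 13 (median -0.38). Socs3, the feedback inhibitor that STAT3 induces, fell slightly (-0.26 ± 0.071, adjusted p = 0.0019, but 0.0633 without the filter), Socs2 fell by 1.62 ± 0.13, and Jak2, a receptor-bound kinase, was at 13.8, 12.5 and 9.82 CPM at 96 h and 4.72, 3.07 and 2.55 CPM at 0 h (1.75 ± 0.22).

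The de novo DNA methyltransferases and their cofactor were much lower, whereas the maintenance enzyme was not called. Of 9 tested of 10 listed, 5 fell and 2 rose. The de novo methyltransferase Dnmt3a was at 66.6, 54.8 and 56.9 CPM at 96 h and 713, 664 and 721 CPM at 0 h (-3.56 ± 0.11, adjusted p = 1.9e-31). Dnmt3b, the second de novo enzyme, was at 136, 134 and 126 CPM at 96 h and 698, 601 and 699.8 CPM at 0 h (-2.34 ± 0.11), and Dnmt3l, their cofactor, was at 268, 273 and 265 CPM at 96 h and 1054, 1100.2 and 1022 CPM at 0 h (-1.98 ± 0.12). None of these genes overlapped between the groups. Dnmt1, the maintenance methyltransferase, was not called (0.072 ± 0.13, adjusted p = 0.68), and Uhrf1, which guides it to hemimethylated DNA, rose by 0.69 ± 0.12. Of the oxidases that remove methylation, Tet2 rose (0.63 ± 0.23, adjusted p = 0.02, but 0.109 without replicate 2 at 0 h and 0.0658 without replicate 1 at 96 h), Tet3 fell (-0.58 ± 0.20) and Tet1 was not called (-0.25 ± 0.17).

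Germline genes that are held silent by promoter methylation in somatic cells went in both directions. Of 23 tested, 6 rose and 10 fell, with a median of 0.071 whose sign was not stable. It was -0.521 with the 2 groups fitted alone, -0.376 with the authors' RUV-normalized values, -0.124 without replicate 3 at 0 h and -0.275 without replicate 3 at 96 h, and it was 0.165 without replicate 2 at 0 h. Rpl10l, a ribosomal protein gene active in the testis, was at 153, 159 and 152 CPM at 96 h and 34.5, 36.7 and 35.1 CPM at 0 h (2.13 ± 0.13); it has a close relative in Rpl10, so its reads may not all be its own. Dazl, an RNA-binding protein of germ cells, was at 24.4, 28.5 and 22.1 CPM at 96 h and 7.48, 10.9 and 8.73 CPM at 0 h (1.48 ± 0.18), and Sohlh2, a bHLH factor of germ cells, rose by 1.47 ± 0.17. In contrast, Ddx4 (Vasa), an RNA helicase of the germ line, was at 15.9, 11.6 and 11.5 CPM at 96 h and 62.8, 76.2 and 63 CPM at 0 h (-2.39 ± 0.13). Other members of the piRNA pathway also fell, among them Piwil2 (-1.72 ± 0.13) and Tdrd1 (-4.82 ± 0.41).

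Subunits of Polycomb repressive complex 2, which trimethylates lysine 27 of histone H3, moved in both directions. Of 13 genes 5 rose and 5 fell (median -0.14, but 0.0513 with the authors' RUV-normalized values). Among the core, Ezh2, the methyltransferase, was at 215, 213 and 194 CPM at 96 h and 177, 184 and 173 CPM at 0 h (0.22 ± 0.07, adjusted p = 0.0098), Suz12 rose by 0.63 ± 0.11 and Eed fell by 0.46 ± 0.10. With the authors' RUV-normalized values Ezh2 and Eed were not called (adjusted p = 0.192 and 0.476), the value of Eed turned positive (0.0997), and Ezh2 was not called without the filter (adjusted p = 0.187) or without replicate 2 at 96 h (0.0548). Jarid2, an accessory subunit that recruits the complex, was at 371, 341 and 359.7 CPM at 96 h and 949.6, 834 and 967 CPM at 0 h (-1.36 ± 0.11). Of the Polycomb-like subunits Mtf2 rose by 0.57 ± 0.069 and Phf19 fell by 1.73 ± 0.19.

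Hox genes, which pattern the body axis and are classical targets of Polycomb, were at very low levels at 0 h, and those called were all higher at 96 h. Of 39 listed, 29 were tested and 16 rose, with a median log2 fold change of 2.41, or 1.57 with 5 genes without a count in a group set at the bound of 3 counts. The median was 1.01 with the authors' RUV-normalized values and 3.65 with the 2 groups fitted alone. Members that passed the filter on low counts through the group where they were high had to differ, so that count is a description. Hoxc13 was at 14.2, 16.4 and 11.7 CPM at 96 h and 0.976, 0.205 and 1.7 CPM at 0 h (3.85 ± 0.31). Hoxc4 was at 6.43, 6.27 and 5 CPM at 96 h and 0.163, 0 and 0.213 CPM at 0 h (adjusted p = 1.7e-11), and Hoxd9 at 4.83, 6.08 and 3.62 CPM at 96 h and 0.163, 0 and 0.213 CPM at 0 h (adjusted p = 1.1e-11). These genes had few or no reads in any 0 h library, and their 96 h levels stayed low: Hoxc13 averaged 14 TPM at 96 h, when Nanog averaged 1249.9 TPM. The genes called belong to all 4 clusters, but in the B cluster they were Hoxb9 (3.46 ± 0.48) and Hoxb13 (2.04 ± 0.82) alone, and the call of Hoxb13 was lost without replicate 2 or 3 at 0 h or replicate 1 or 2 at 96 h (adjusted p = 0.0819 to 0.143).

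Imprinted genes, expressed from a single parental copy, fell more often than they rose: of 40 tested of 43 listed, 21 fell and 9 rose (median -0.43). Peg10, a retrotransposon-derived gene needed by the placenta, was at 49.9, 50.8 and 50.0 CPM at 96 h and 329, 309.7 and 322 CPM at 0 h (-2.67 ± 0.15). Cdkn1c (p57), a cell-cycle inhibitor, was at 10.8, 8.56 and 11.2 CPM at 96 h and 76.4, 87.7 and 73 CPM at 0 h (-2.95 ± 0.14), and Mest fell by 1.39 ± 0.10. Against this trend Plagl1 (Zac1), a zinc-finger growth regulator, was at 28.7, 26.4 and 27.1 CPM at 96 h and 1.3, 0.82 and 0.639 CPM at 0 h (4.81 ± 0.26, adjusted p = 5.6e-22). Dio3, a deiodinase that inactivates thyroid hormone, was at 34, 38.4 and 42.7 CPM at 96 h and 3.58, 2.05 and 1.7 CPM at 0 h (3.92 ± 0.21). It lies in the same imprinted domain as Meg3, Rian, Mirg, Dlk1 and Rtl1, which all fell (log2 fold changes -0.64, -0.46, -1.31, -1.23 and -1.16); Rtl1 and Meg3 overlap on opposite strands, and Rian and Rtl1 were not called with the authors' RUV-normalized values (adjusted p = 0.195 and 0.0741). The neighbours Igf2 and H19 also moved apart, with Igf2 at 1.07 ± 0.16 and H19 at -0.92 ± 0.28.

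Genes of ribosome production and polyamine synthesis, many of them targets of Myc, mostly fell, by small amounts. Of 32 genes, all tested, 28 fell and 0 rose (median -0.47). Srm (spermidine synthase) was at 208, 231 and 218 CPM at 96 h and 554, 523 and 525 CPM at 0 h (-1.29 ± 0.082, adjusted p = 5.2e-19). Odc1 (ornithine decarboxylase), the first enzyme of the polyamine pathway, was at 719.9, 713 and 708 CPM at 96 h and 1268, 1246 and 1337 CPM at 0 h (-0.85 ± 0.10). The groups were separate for both. Rrp9 and Bop1, processing factors of ribosomal RNA, fell (-0.94 ± 0.093 and -0.85 ± 0.066), as did nucleolin (Ncl, -0.37 ± 0.073) and nucleophosmin (Npm1, -0.52 ± 0.11), the abundant nucleolar proteins. The sequences shown for this group are promoters that hold CACGTG, the palindromic E-box that Myc and its relatives can bind, in capitals: 9 of the 26 members with a promoter in the RefSeq table hold it, against 8.09% of all genes in the table. Nop2, a ribosomal RNA methyltransferase that fell by 0.37 ± 0.068, has it at base 191 of chr6:125131633-125131932 (plus strand), and Nle1, an assembly factor of the large subunit that fell by 0.68 ± 0.083, at base 274 of chr11:82908346-82908645 (minus strand, both GRCm38.p6).
Nop2: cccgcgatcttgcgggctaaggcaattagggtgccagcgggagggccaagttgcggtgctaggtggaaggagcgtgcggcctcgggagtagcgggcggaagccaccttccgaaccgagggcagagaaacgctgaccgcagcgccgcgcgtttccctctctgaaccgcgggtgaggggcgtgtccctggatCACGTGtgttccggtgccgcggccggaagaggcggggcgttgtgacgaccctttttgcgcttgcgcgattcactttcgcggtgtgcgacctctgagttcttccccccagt
Nle1: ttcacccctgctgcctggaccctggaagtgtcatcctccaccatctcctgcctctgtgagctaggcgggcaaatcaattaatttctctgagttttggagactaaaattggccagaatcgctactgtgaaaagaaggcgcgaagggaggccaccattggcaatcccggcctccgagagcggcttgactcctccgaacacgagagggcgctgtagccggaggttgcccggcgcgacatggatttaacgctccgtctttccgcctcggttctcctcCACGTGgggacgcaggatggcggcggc

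Targets of Atf4, the factor induced when amino acids are short, did not change together. Of 20 genes, all tested, 6 rose and 5 fell (median 0.075, against 0.168 with the authors' RUV-normalized values and 0.0467 with RLE factors). The promoters of 4 of them are shown because they share a match to the composite element of Atf4 and C/EBP proteins (TGATGNAA on either strand, in capitals) and yet differ in response; 6 of the 16 members with a promoter in the table hold it, against 4.51% of all genes. The windows are chr6:7693160-7693459 (minus strand), chr7:126625421-126625720 (minus), chr2:152344011-152344310 (minus) and chr2:119350992-119351291 (plus), GRCm38.p6 from RefSeq.
Asns: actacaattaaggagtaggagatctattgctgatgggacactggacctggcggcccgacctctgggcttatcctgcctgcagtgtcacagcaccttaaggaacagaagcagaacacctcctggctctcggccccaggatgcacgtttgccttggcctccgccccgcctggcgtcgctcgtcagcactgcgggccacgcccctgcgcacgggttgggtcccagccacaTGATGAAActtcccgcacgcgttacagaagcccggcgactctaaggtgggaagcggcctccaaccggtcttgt
Nupr1: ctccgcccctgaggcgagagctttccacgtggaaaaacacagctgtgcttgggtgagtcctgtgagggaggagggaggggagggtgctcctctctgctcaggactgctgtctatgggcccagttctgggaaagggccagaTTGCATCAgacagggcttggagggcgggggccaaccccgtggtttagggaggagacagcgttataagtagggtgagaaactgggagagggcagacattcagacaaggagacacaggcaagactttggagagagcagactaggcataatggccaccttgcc
Trib3: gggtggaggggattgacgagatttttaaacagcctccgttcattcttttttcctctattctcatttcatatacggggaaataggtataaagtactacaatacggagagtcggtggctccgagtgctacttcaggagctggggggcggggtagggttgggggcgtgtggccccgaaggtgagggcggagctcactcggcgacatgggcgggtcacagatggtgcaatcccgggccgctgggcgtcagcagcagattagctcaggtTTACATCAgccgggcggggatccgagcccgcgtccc
Chac1: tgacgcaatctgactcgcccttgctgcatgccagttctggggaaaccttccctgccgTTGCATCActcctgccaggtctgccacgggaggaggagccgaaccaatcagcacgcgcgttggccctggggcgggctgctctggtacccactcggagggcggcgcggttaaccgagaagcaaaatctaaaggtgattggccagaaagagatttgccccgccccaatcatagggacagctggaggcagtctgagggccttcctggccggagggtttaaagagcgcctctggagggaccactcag
Asns, asparagine synthetase, was at 1432, 1532 and 1508 CPM at 96 h and 427, 464 and 431 CPM at 0 h (1.76 ± 0.078, adjusted p = 4.0e-25). Nupr1, a stress-induced nuclear protein, was at 43.4, 45.4 and 44.8 CPM at 96 h and 13.7, 16 and 13.2 CPM at 0 h (1.64 ± 0.19). Chac1, which degrades glutathione, was at 15.9, 20.5 and 15.5 CPM at 96 h and 42, 40.2 and 38.3 CPM at 0 h (-1.21 ± 0.14). The groups of these genes were apart, with Chac1 lower and the others higher at 96 h. Trib3, a pseudokinase that damps the pathway, was at 52.6, 51.3 and 53.9 CPM at 96 h and 62.1, 55.8 and 58.5 CPM at 0 h and was not called (-0.16 ± 0.14, adjusted p = 0.34). Slc7a3, a transporter of cationic amino acids, was at 179, 167 and 187 CPM at 96 h and 305, 297 and 308 CPM at 0 h (-0.77 ± 0.082).

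Most genes of cholesterol synthesis rose. Of 24 genes of cholesterol synthesis and uptake, all tested, 17 were higher and 2 lower (median 0.46). Msmo1, a sterol methyl oxidase, was at 142, 166 and 163 CPM at 96 h and 68.6, 73.2 and 67.1 CPM at 0 h (1.17 ± 0.14). Fdft1, squalene synthase, was at 138, 151 and 161 CPM at 96 h and 79.8, 77.9 and 90.5 CPM at 0 h (0.86 ± 0.089). Insig1, which holds back SREBP, rose by 0.87 ± 0.10, and Sqle, squalene epoxidase, rose by 0.63 ± 0.074. In fatty acid synthesis 6 of 14 rose and 1 fell: the desaturases Scd1 and Scd2 rose by 1.52 ± 0.14 and 1.05 ± 0.11 and malic enzyme Me1 by 1.68 ± 0.13, whereas the synthase Fasn (-0.28 ± 0.18) and the carboxylase Acaca (-0.36 ± 0.16) were not called.

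Glycolysis genes split between isoforms, and few nuclear genes of oxidative phosphorylation were called. Of 24 glycolytic genes 5 rose and 11 fell (median -0.12, against -0.186 without replicate 2 at 96 h). Pfkp, the platelet form of phosphofructokinase, was at 329, 303 and 322 CPM at 96 h and 100.2, 86.5 and 99.2 CPM at 0 h (1.74 ± 0.11), while Pfkl, the liver form, was at 131, 114 and 119 CPM at 96 h and 227, 213 and 235 CPM at 0 h (-0.89 ± 0.08). Hexokinase Hk1 rose by 1.67 ± 0.13, and the glucose transporters diverged, Slc2a3 at 0.56 ± 0.089 and Slc2a1 at -1.09 ± 0.08. Pdk1, which diverts pyruvate from the mitochondria, was at 29.9, 35.2 and 35.2 CPM at 96 h and 226, 219 and 226 CPM at 0 h (-2.74 ± 0.13, adjusted p = 2.6e-24), and the lactate exporter Slc16a3 fell by 2.18 ± 0.17. Of 31 nuclear genes of oxidative phosphorylation 2 rose and 2 fell, with a median of -0.015. Those with the smallest adjusted p were Cox5a, a subunit of complex IV (0.52 ± 0.16), and Uqcrc2 (0.23 ± 0.074) and Cyc1 (-0.20 ± 0.07), subunits of complex III; the call of Uqcrc2 was lost without replicate 2 at 0 h (adjusted p = 0.0526) or replicate 3 at 96 h (0.0626), and neither complex III gene was called without the filter (0.155 and 0.149).

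Genes of the G1 phase moved in both directions. Of 20 such genes 10 rose and 4 fell (median 0.37). Cdkn1a (p21), an inhibitor of cyclin-dependent kinases, was at 85.5, 81.2 and 81.5 CPM at 96 h and 20.8, 19.1 and 18.9 CPM at 0 h (2.07 ± 0.08, adjusted p = 2.2e-27), and Cdkn1b (p27) rose by 0.80 ± 0.10. Ccnd2 was at 2.53, 1.71 and 3.1 CPM at 96 h and 52, 45.5 and 58.8 CPM at 0 h (-4.39 ± 0.17), and Ccne1 at 188, 198 and 201 CPM at 96 h and 448, 443 and 434 CPM at 0 h (-1.17 ± 0.076). None of these groups overlapped. Among inhibitors the imprinted Cdkn1c fell, as given above. Of 16 genes of the p53 list 6 rose and 3 fell: besides Cdkn1a, the ribonucleotide reductase subunit Rrm2b rose by 1.76 ± 0.22, cyclin G1 (Ccng1) rose by 0.68 ± 0.075 and Trp53inp1 rose by 0.96 ± 0.12, while Trp53 itself fell by 0.64 ± 0.073 and Mdm2, Bbc3 and Bax were not called.

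Epithelial genes fell more often than they rose, with 8 lower and 3 higher of 17 (median -0.32, against -0.51 without replicate 2 at 96 h and -0.759 with the authors' RUV-normalized values). Esrp1, a splicing regulator of epithelial cells, was at 1.38, 1.14 and 1.38 CPM at 96 h and 70.4, 60.5 and 64.5 CPM at 0 h (-5.63 ± 0.15), and its adjusted p of 8.6e-34 was the smallest among the members. Epcam, an adhesion molecule of epithelia and embryonic stem cells, was at 63.4, 72.8 and 73.4 CPM at 96 h and 312, 353 and 316 CPM at 0 h (-2.22 ± 0.10), and the claudin gene Cldn6 fell by 2.08 ± 0.13. Cdh1 (E-cadherin) was not called (-0.14 ± 0.075, adjusted p = 0.12), and Krt8 rose by 0.96 ± 0.13. Of 10 mesenchymal genes tested, 5 rose and 1 fell: fibronectin (Fn1) was at 1144, 1112 and 1177 CPM at 96 h and 523, 364 and 496 CPM at 0 h (1.31 ± 0.24), the repressor Zeb1 rose by 1.74 ± 0.14 and the fibronectin receptor subunit Itga5 rose by 0.51 ± 0.10. Contractile genes and targets of YAP gave 4 higher and 9 lower of 18. The myosin light chain gene Myl9 fell by 1.60 ± 0.23 and Cnn2 (calponin) fell by 1.11 ± 0.12, whereas Amotl2 and Lats2, YAP targets that inhibit YAP in turn, rose by 1.24 ± 0.11 and 1.53 ± 0.20.

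Markers of other lineages moved in different directions. Primitive endoderm genes gave 9 lower and 3 higher of 18 (median -0.83), and neuroectoderm genes 5 lower and 0 higher of 9 tested of 13 listed (median -1.09). In the endoderm list Sparc, a matrix protein also made by other cells, was at 576 CPM at 96 h and 356 CPM at 0 h (0.69 ± 0.061), and the laminin gene Lamb1 at 77.7 CPM at 96 h and 169.9 CPM at 0 h (-1.13 ± 0.13). In the neural list the tubulin gene Tubb3 was at 65.5 CPM at 96 h and 139 CPM at 0 h (-1.09 ± 0.10), and the factor Sox11 fell by 2.42 ± 0.15. The summed level of the endoderm list was 1001 to 1051 TPM at 96 h and 634 to 756 TPM at 0 h. Gata6, the key primitive endoderm factor, was at 1.15, 1.14 and 1.03 CPM at 96 h and 6.18, 6.35 and 5.11 CPM at 0 h (-2.40 ± 0.34). Cubn (cubilin), an uptake receptor of the endoderm, was at 0.46, 0 and 0.517 CPM at 96 h and 20.7, 16.4 and 21.9 CPM at 0 h (-5.84 ± 0.48), and Pax6, a neural homeobox gene, at 0.46, 0 and 0.345 CPM at 96 h and 13.5, 15.4 and 15.8 CPM at 0 h (-5.73 ± 0.40). Each of these was without overlap and low at 96 h, whereas Sox1, a neural Sox factor, was at 30.6, 25.9 and 29.6 CPM at 96 h and 28.6, 27.9 and 28.5 CPM at 0 h and was not called. In the other direction 7 of 16 trophoblast genes rose and 1 fell (median 0.40, but -0.153 with the authors' RUV-normalized values and 0.882 with the 2 groups fitted alone), among them Tead4 (1.47 ± 0.18), Eomes (1.35 ± 0.19) and Gata3 (1.14 ± 0.22), which early embryo and other cells also use; Cdx2 was at 1.13 CPM at 96 h and 1.14 CPM at 0 h and was not called. Of 8 mesendoderm genes tested of 14 listed 3 rose and 2 fell (median -0.014, but 0.814 with the 2 groups fitted alone). Gsc, a homeobox factor of the primitive streak, was at 3.73 CPM at 96 h and 0.356 CPM at 0 h. Mesp2, a factor of early mesoderm, was at 0.797 CPM at 96 h and 3.81 CPM at 0 h. Of 9 fibroblast genes tested of 15 listed 4 rose and 0 fell. Members of this and the mesendoderm list that passed the filter on low counts through the group where they were high had to differ. The numbers called are therefore descriptions. The summed level over the fibroblast list was 21.9 to 25.5 TPM at 96 h and 15.6 to 21.2 TPM at 0 h. Called members included Pdgfrb, a growth factor receptor (2.26 ± 0.34), and Acta2, smooth muscle actin (1.74 ± 0.30). The part of such cells in other results was not tested.

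Interferon and viral sensing genes gave 7 higher and 3 lower of 20 tested. Oas1a, a sensor of double-stranded RNA, was at 17.2, 20.9 and 21.4 CPM at 96 h and 7.16, 6.35 and 5.11 CPM at 0 h (1.67 ± 0.19), and H2-D1 and B2m, which form a class I histocompatibility molecule, rose by 1.45 ± 0.15 and 1.95 ± 0.27. Bst2 (tetherin) was at 22.7, 26.8 and 18.8 CPM at 96 h and 96.1, 108 and 95.2 CPM at 0 h (-2.13 ± 0.16). Genes of the 2-cell-like state, which a few stem cells enter at any time, gave 6 higher and 0 lower of 10 tested of 15 listed. Members that passed the filter on low counts through the group where they were high had to differ, so this count too is a description. Zscan4a was at 4.83, 4.18 and 2.41 CPM at 96 h and 1.14, 0.41 and 0.639 CPM at 0 h (2.26 ± 0.48). The deubiquitinase genes Usp17la and Usp17le rose by 2.45 ± 0.67 and 1.62 ± 0.42, the second not called with the authors' RUV-normalized values (adjusted p = 0.0734). These genes are near-identical copies, so how reads were split between them is uncertain.

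The largest rises by fold, among genes with an established symbol, at least 5 CPM in the higher group and no overlap, were in genes near 0 at 0 h. Where a group has 3 counts or fewer, levels are given without a fold. Cd3g, a chain of the T-cell receptor complex, had 5.97, 5.32 and 5 CPM at 96 h and no count at 0 h, which makes it at least 28.2-fold higher against a floor of 3 counts over the group, and its divergently transcribed neighbour Cd3d had 4.6, 7.42 and 8.1 CPM at 96 h and 0.163, 0.205 and 0 CPM at 0 h. Trpm1, a cation channel, had 23.9, 20.2 and 19.6 CPM at 96 h and 0.325, 0.205 and 0.213 CPM at 0 h (6.27 ± 0.34, adjusted p = 8.5e-22). Each of these 3 was above 0 h in every 96 h library. Crxos, a homeobox gene next to Crx, had 31.2, 29.1 and 31.5 CPM at 96 h and 0.488, 0.41 and 1.28 CPM at 0 h (5.41 ± 0.32). Klhdc7a had 15.9, 17.3 and 16 CPM at 96 h and 0.325, 0.205 and 0.426 CPM at 0 h (5.60 ± 0.35), and Pramel30, of a family with many similar copies, 9.88, 6.46 and 9.65 CPM at 96 h and 0.488, 0 and 0 CPM at 0 h. Hoxc4, given above, was also among them.

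The largest falls were in Ccdc194, Insm1, Rxrg, Gsx1, Egr1, Tmem54, Enpp2 and Cubn. Insm1, a zinc-finger factor of neuroendocrine cells, had 0, 0 and 0.172 CPM at 96 h and 27.8, 23 and 29 CPM at 0 h (adjusted p = 1.0e-19). Ccdc194 had 12, 11.7 and 13 CPM at 0 h and no count at 96 h, which makes it at least 62.7-fold lower, and Rxrg, a retinoid X receptor, and Gsx1, a homeobox factor of the nervous system, had no count at 96 h either, at least 32.7-fold and 25.8-fold lower. Enpp2 (autotaxin), which makes lysophosphatidic acid, was at 0, 0.19 and 0.172 CPM at 96 h and 9.43, 8.81 and 8.09 CPM at 0 h, and Tmem54 at 0.23, 0 and 0.172 CPM at 96 h and 9.11, 9.22 and 9.58 CPM at 0 h. All 8 were at or near absence in every 96 h library.

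Measured as TPM gained or lost, other genes led among called genes with an established symbol. Genes that were not called were not ranked. The mitochondrial gene COX1 gained most, with 9883 TPM at 96 h and 6102 TPM at 0 h, but its 96 h libraries ranged widely, at 5158, 6402 and 7499.5 CPM against 4253, 4395 and 4127 CPM at 0 h. Its call (adjusted p = 0.048) was lost with RLE factors (0.0576), DESeq2 (0.0585), a filter at a mean of 1 CPM (0.0534) and a replicate block (0.0523), with the authors' RUV-normalized values (0.0943) and without any single library except replicate 1 at 96 h (0.0816 to 0.199). Next came Ftl1, the ferritin light chain, with 5896 TPM at 96 h and 3879 TPM at 0 h, and Ckb, a creatine kinase, with 1596 TPM at 96 h and 385 TPM at 0 h. Asns had 1517 TPM at 96 h and 412 TPM at 0 h, and Spp1 (osteopontin) 1488 TPM at 96 h and 413 TPM at 0 h. The largest losses were in Utf1, with 456 TPM at 96 h and 1902 TPM at 0 h, the ribosomal protein genes Rplp2, Rps15 and Rps21, and the chaperone gene Hsp90ab1, with 6966 TPM at 96 h and 8067 TPM at 0 h (-0.33 ± 0.055). The ribosomal protein genes changed by -0.58 ± 0.20, -0.50 ± 0.21 and -0.56 ± 0.24, with adjusted p of 0.014, 0.042 and 0.049, and have many processed pseudogenes. Rplp2 was not called without replicate 2 at 0 h (0.0666), Rps15 without any 1 of the 6 libraries (0.0546 to 0.129) and Rps21 without any 1 of them except replicate 3 at 0 h (0.0604 to 0.184). Rps15 and Rps21 were not called with the authors' RUV-normalized values either (0.0751 and 0.0806), nor Rps21 with DESeq2 (0.0584).

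Against the other wild-type line, most of the V19 response was not called different. The test of the difference, the 96 h change of V19 minus that of 1A in the same model, called 254 of 15083 genes (1.68%), 147 of them with a higher value in V19 (0.975%) and 107 with a lower one (0.709%), while 1995 had an unadjusted p under 0.05. Genes not called are not shown to respond alike: with the 4 groups fitted alone the count was 1030, and without the libraries of other groups that stood apart it was 601. The naive list held 7 genes with a lower value in V19 and 1 with a higher one. Tbx3 changed by 2.10 ± 0.10 in V19 and 3.36 ± 0.11 in 1A, a difference of -1.26 ± 0.15 (adjusted p = 2.2e-07), and its mean levels were 333 ± 18.6 CPM at 96 h and 77.9 ± 5.52 CPM at 0 h in V19, and 312 ± 11.6 CPM at 96 h and 30.5 ± 1.71 CPM at 0 h in 1A. Prdm14 changed by 1.81 ± 0.10 in V19 and 3.12 ± 0.11 in 1A, a difference of -1.31 ± 0.16 (adjusted p = 2.2e-07), with levels of 60.2 ± 5.56 CPM at 96 h and 17 ± 2.58 CPM at 0 h in V19, and 60.3 ± 3.7 CPM at 96 h and 6.98 ± 0.828 CPM at 0 h in 1A. For both genes the 1A cells were lower than V19 at 0 h. Nr0b1 changed by -0.79 ± 0.087 in V19 and by 0.14 ± 0.085 in 1A, a difference of -0.93 ± 0.12. The nuclear receptor Nr5a2 had a difference of -0.72. The remaining called members were less firm. Gbx2 (-0.75) was not called with the authors' RUV-normalized values (-0.628, adjusted p = 0.144). Zfp42 (-0.30) was not called without any of 11 of the 12 libraries (adjusted p = 0.0521 to 0.143) or under 4 other alternatives (0.057 to 0.55), Pecam1, an adhesion molecule (0.57), without any of 9 (0.0569 to 0.12), and Manba, a lysosomal mannosidase (-0.48), without replicate 2 of 1A at 96 h (0.0568) or without the filter (0.136).

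**Figure D4:**
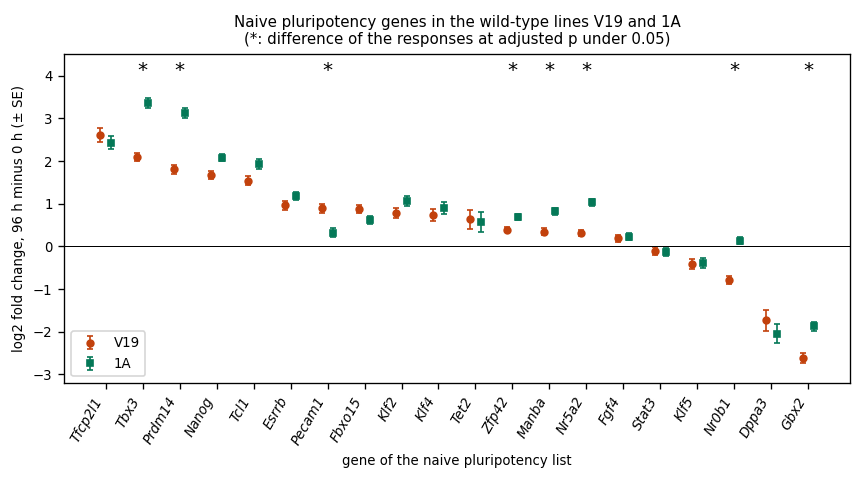
Log2 fold change from 0 h to 96 h ± SE (vertical axis) of the 20 naive pluripotency genes (horizontal axis, ordered by V19) in V19 (orange circles) and 1A (green squares), 3 libraries per line and time; an asterisk marks a gene whose difference of response had an adjusted p under 0.05. Tbx3, Prdm14 and Nr0b1 show the widest gaps among the marked genes, with differences of -1.26, -1.31 and -0.93.

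Outside the naive list the largest differences were taken among genes with an established symbol and a mean of at least 5 CPM in any of the 4 groups. Lcp1 (plastin), an actin bundler, changed by 3.87 ± 0.30 in V19 and 1.33 ± 0.27 in 1A (difference 2.54 ± 0.46), and Liph, a lipase, by -0.052 ± 0.15 in V19 and -1.81 ± 0.15 in 1A (difference 1.76 ± 0.22, adjusted p = 3.4e-07). Lama4 (laminin), Cdhr1 (a protocadherin), Elmo1 and Arfgef3 also had higher values in V19, by 2.12, 2.09, 1.88 and 1.73. Lower in V19 were the responses of the homeobox gene Vax2 (-2.72), Zfp951 (-2.36), Cyp11a1, the side-chain cleavage enzyme of steroid synthesis (-2.11), Skida1 (-1.63), Ramp3 (-1.50) and the epoxide hydrolase gene Ephx2 (-1.49). The calls of Arfgef3, Vax2, Cyp11a1, Lama4 and Skida1 were lost without single libraries, 7, 6, 3, 2 and 2 of the 12, with adjusted p up to 0.111, 0.213, 0.16, 0.0848 and 0.121. Zfp951 was at 20.9 ± 1.61 CPM at 96 h and 12.6 ± 1.36 CPM at 0 h in V19, and at 16.2 ± 2.22 CPM at 96 h and 1.81 ± 0.549 CPM at 0 h in 1A. Among signalling genes, Axin2 and Notum, both induced by Wnt, had differences of -0.78 and -0.90, Lefty2 one of 1.09, Jak2 1.22 and Pim1, a kinase induced by STAT3, 0.68. The calls of Axin2 and Jak2 were lost without any of 7 and 5 of the 12 libraries (adjusted p up to 0.122 and 0.117), and that of Pou3f1 without any of 4 (up to 0.226) and with the authors' RUV-normalized values (0.13). Cdkn1c and H19 had lower values in V19 (-1.25 and -1.43), as did Sox1 (-1.27) and Foxd3 (-0.60), while Tfap2c (1.06), Nes (1.29), Pou3f1 (1.05) and Cdh1 (0.52) had higher ones. Genes of chromosome 8 had a median log2 level 0.416 higher in V19 than in 1A at 0 h, and their median 96 h change in V19 was -0.0596; Zfp42 and Cdh1 lie there, and the part of the chromosome in their values was not tested.

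Libraries of V19 at 12, 24 and 48 h give the levels between; they share the 0 h libraries, the 48 h libraries varied more among themselves than those of the other times (root mean square deviations of 0.206 to 0.358), and no test is given. Myc was at 161, 10.3, 9.63, 3.26 and 13.9 CPM on average at 0, 12, 24, 48 and 96 h, so it was low from 12 h on. Dusp6 followed the same course, at 140.5, 7.17, 7.5, 2.44 and 13.2 CPM. For both genes all 9 libraries of the times between lay below every library at 96 h, and the 96 h libraries stayed far below those at 0 h. Further ERK and epiblast genes were also lower between than at either end. Etv1 was at 18.6, 1.89, 3.67, 2.37 and 19.8 CPM at the 5 times, and Etv5 at 242, 113, 144, 144 and 238 CPM. Zic2, a zinc-finger factor, was at 43.4, 13.9, 24.8, 22 and 41.6 CPM. None of these 3 was called at 96 h, and for each of them all 9 libraries of the times between lay below every library at 0 h and 96 h. Etv4 was also lower between than at either end, at 274, 16.1, 10.4, 4.06 and 65.7 CPM, but stayed below its 0 h level at 96 h. Other genes were higher in between. Lefty1 was at 24.2, 153, 72.7, 31.8 and 8.06 CPM, and Dppa3 at 32.3, 76.9, 58.5, 76.6 and 9.65 CPM, so both were above 0 h at 12 h and below it at 96 h. Trib3 was at 58.8, 189, 133, 84.8 and 52.6 CPM. It was not called at 96 h, though every 96 h library lay slightly below every 0 h library. Asns, which shares the promoter element shown above, was at 441, 1139.9, 1481, 2055 and 1491 CPM and stayed above its 0 h level at every later time.

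**Figure D5:**
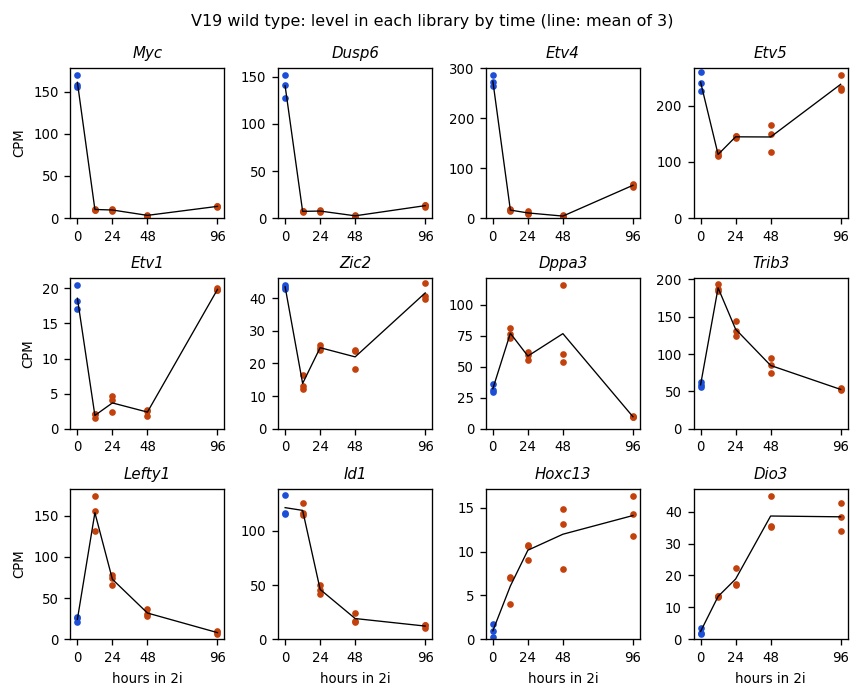
CPM in each V19 library (points) at 0, 12, 24, 48 and 96 h in 2i (horizontal axis) for 12 genes, with a line through the means of 3 libraries; blue points are 0 h, orange points later times, and every vertical axis starts at 0. Etv1, Etv5 and Zic2 are low at 12 to 48 h and higher again at 96 h. Trib3 and Lefty1 are highest at 12 h, and Hoxc13 and Dio3 are higher at every later time than at 0 h.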

How the data were processed

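The deposited count table holds whole-number read counts per gene, which the authors made from 75-base single reads of poly(A)-selected RNA; per the labels' protocols, reads of 2 NextSeq flowcells were merged for each library. The submitters' processing notes name STAR 2.7.10b, featureCounts 2.0.3, MultiQC 1.14, DESeq2 and GRCm39, without their roles, and the strand setting of the counting is not given in the sources used here, so reads of genes that overlap on opposite strands cannot be told apart; over 20% of the exon bases of Ccnd1, Cdx1, Fgf15, Meg3, Pax6 and Uqcrc2 lie opposite another gene. A second deposited table holds normalized values, a score that the authors made with RUV, whose settings are not given in the sources used here; it served for an alternative only.

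All 60 libraries in 20 groups were fitted in one model with edgeR 4.0.16 in R 4.3.3 (TMM factors, quasi-likelihood test), on the 15083 of 50559 genes that passed filterByExpr (settings of 10 counts and 15 in total). P-values are two-sided and adjusted over all genes tested by the Benjamini-Hochberg method. Standard errors are the size of the log2 fold change divided by the square root of the F statistic. The 6 libraries hold 4310359 to 6497134 counts, CPM divide by these totals scaled with the TMM factors, and where a group had no count a bound was set at 3 counts over the group, which covers counting error only. TPM use the exon length in the count table. The difference between V19 and 1A was tested as an interaction contrast. Alternatives were RLE factors, other filters, a replicate block, the groups alone, DESeq2 1.42.0, limma 3.58.1 on log2(RUV value + 1) and leaving out each library; fitting without the libraries of other groups that stood apart was added after the data were seen. Counts of 2 libraries of a group always differed by more than sampling noise. The scripts were tested on simulated data. The members of the gene lists, and the comparison itself, were chosen with earlier results of these data known. Genes are named by size of change, by adjusted p within each list, by gain or loss in TPM and by difference from 1A; others are named for their roles, and a few genes that these rules name are not reported here. Promoters come from RefSeq (GRCm38.p6), while the counts are on GRCm39. The labels call the libraries biological replicates without saying that they are separate cultures, so p-values measure the spread between samples so labelled. That spread was estimated per gene over all 20 groups of the series (40 residual degrees of freedom). It includes groups that varied more, such as V19 at 48 h, and is not that of the 6 compared libraries alone.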

Additional observations from a re-analysis of the deposited data

Results flagged for a closer look

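The genes below had a 96 h response in V19 that differed from that in 1A by the test of the difference itself, the interaction term of edgeR's model (adjusted p under 0.05). Values are the log2 response of V19 minus that of 1A, and no explanation was tested. In the naive network they were Tbx3 (-1.26), Prdm14 (-1.31), Nr0b1 (-0.93), Gbx2 (-0.75), Nr5a2 (-0.72), Manba (-0.48), Zfp42 (-0.30) and Pecam1 (0.57). Among later pluripotency and neural genes they were Pou3f1 (1.05), Foxd3 (-0.60), Sox1 (-1.27) and Nes (1.29). In signalling they were Axin2 (-0.78), Notum (-0.90), Lefty2 (1.09), Jak2 (1.22) and Pim1 (0.68), and among imprinted genes Cdkn1c (-1.25) and H19 (-1.43). Tfap2c, a trophoblast and germline factor, differed by 1.06 and Cdh1 by 0.52. Among genes with an established symbol and a mean of at least 5 CPM in any of the 4 groups, those with the widest differences were Lcp1 (2.54), Lama4 (2.12), Cdhr1 (2.09), Elmo1 (1.88), Liph (1.76) and Arfgef3 (1.73), higher in V19, and Vax2 (-2.72), Zfp951 (-2.36), Cyp11a1 (-2.11), Skida1 (-1.63), Ramp3 (-1.50) and Ephx2 (-1.49), lower in V19.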

How the results depend on the processing

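The count of genes called at 96 h against 0 h in V19 was 7158 and ranged from 6862 to 7992 under the alternatives that kept all 6 libraries, and from 6335 to 6552 when 1 library was left out (3302 to 3412 higher, 3033 to 3188 lower). For the difference from 1A, 254 genes in the main model became 1030 (512 higher, 518 lower) with the 4 groups fitted alone, 601 (317 higher, 284 lower) without the libraries of other groups that stood apart, and 172 to 209 when 1 library was left out (95 to 117 higher, 70 to 95 lower); with the RUV-normalized values, 182 were lower. The share of higher among all calls moved between 49 and 52.3%. Eed reversed, to 0.0997 with the RUV-normalized values; the cause was not tested. Same-numbered libraries did not deviate together (correlations of 0.0295, 0.0372 and 0.00423 in V19), so the replicate block served as an alternative only. With it 7142 genes were called, and 253 for the difference. The block ended the calls of COX1 at 96 h and of Zfp42 in the difference. Of the named genes' calls at 96 h, among genes reported here DESeq2 ended those of Atf4, COX1 and Rps21, and fits without the libraries of other groups that stood apart ended none. List medians near 0 could change sign: that of interferon genes was 0.251, and -0.0449 with the RUV-normalized values. Genes with few counts in a group give a direction but no reliable fold.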
